A study of Sus scrofa with 2 samples.

Results

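RDH16, DIO1 and BMX are 3 of the 31908 genes counted in single pancreatic nuclei of 1 wild-type (WT) pig and 1 transgenic (PIGinH11) pig. They were chosen by their far lower share of UMIs, the unique molecular identifiers that mark single RNA molecules, in PIGinH11 than in WT acinar nuclei. That contrast is therefore a description of how they were selected and not a finding, and with 1 library in each group no test of any difference was possible. Both animals were 18-month-old Bama pigs, males by the methods of the study, fed a control diet until 6 months and a high-fat and high-sucrose diet (HFHSD) for the next 12 months. The PIGinH11 pig carried GIPRdn, a dominant-negative receptor for an incretin hormone, hIAPP, the human islet amyloid polypeptide, and a variant form of PNPLA3, a lipid droplet protein. These 3 transgenes stand at the H11 locus under promoters of the beta cell or the liver, so none was designed for expression in acinar cells. A single piece of tissue was taken from the body of the pancreas for each group, and genotype, animal, tissue piece and library cannot be told apart.

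The 3 genes belong to pathways that are better known from other cells. RDH16 encodes a microsomal retinol dehydrogenase of the short-chain dehydrogenase/reductase family, known from the liver, which oxidizes retinol and some hydroxysteroids. DIO1 encodes the type 1 iodothyronine deiodinase, a selenocysteine-containing enzyme of liver, kidney and thyroid that converts the prohormone thyroxine into the active triiodothyronine. BMX encodes a non-receptor tyrosine kinase of the Tec family, known from the endothelium of arteries and the endocardium. Acinar cells are the enzyme-secreting cells of the exocrine pancreas, and ductal cells line the tubes that carry the enzymes away.

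The WT library held 55784067 UMIs in 13619 barcodes and the PIGinH11 library 26228811 UMIs in 14964 barcodes. After filtering, 11854 WT and 13126 PIGinH11 nuclei were clustered without using these genes, and clusters were named "X-like" from marker genes. The acinar-like class held 8433 WT and 9010 PIGinH11 nuclei in 7 clusters, with medians of 2849 and 1208 UMIs per nucleus. Of its 14 naming markers, 13 were higher in acinar-like than in ductal-like nuclei in each library, and NR5A2 was the exception. Levels are given as UMIs of a gene per 1000000 UMIs of the class (CPM). Intervals are exact 95% intervals that cover counting error only and not the spread between animals. Of the barcode sequences, 60 occurred in both libraries, and none of the PIGinH11 UMIs of the 3 genes lay on these barcodes.

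RDH16, the retinol dehydrogenase, was the most changed of the 3 genes in acinar-like nuclei. In WT, 5787 RDH16 UMIs gave 192 CPM (186.7 to 197), and in PIGinH11, 49 UMIs gave 3.16 CPM (2.34 to 4.18). The PIGinH11 level was thus 60.6-fold lower (45.7 to 82.0), a log2 ratio of -5.92 (-6.36 to -5.52). RDH16 was found in 3546 WT acinar-like nuclei, or 42.0% (41.0 to 43.1), and in 48 PIGinH11 nuclei, or 0.533% (0.393 to 0.706). A single WT nucleus held up to 7 RDH16 UMIs, whereas 47 of the 48 positive PIGinH11 nuclei held just 1.

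DIO1, the deiodinase, was lower by a smaller factor. Its 1449 UMIs in WT acinar-like nuclei gave 48.0 CPM (45.5 to 50.5), against 2.13 CPM (1.47 to 2.99) from 33 UMIs in PIGinH11. This is a 22.5-fold lower level (16.0 to 32.8), with a log2 ratio of -4.49 (-5.04 to -3.996). The share of acinar-like nuclei with a DIO1 UMI was 12.5% (11.8 to 13.2) in WT and 0.344% (0.234 to 0.488) in PIGinH11.

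BMX, the Tec family kinase, gave 996 UMIs and 33.0 CPM (31.0 to 35.1) in WT acinar-like nuclei and 26 UMIs and 1.68 CPM (1.10 to 2.46) in PIGinH11. The level was 19.6-fold lower (13.3 to 30.2), with a log2 ratio of -4.30 (-4.92 to -3.74). WT acinar-like nuclei held a BMX UMI in 9.81% of cases (9.18 to 10.5) and PIGinH11 nuclei in 0.277% (0.180 to 0.409). At least 1 of the 3 genes was found in 52.1% of the WT acinar-like nuclei and in 1.13% of those of PIGinH11.

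Falls of this size were rare among the genes of acinar-like nuclei. Of 13554 genes with at least 100 UMIs in acinar-like nuclei, 79 (0.583%) were at least 4-fold lower in PIGinH11, which the 3 genes had to be among by their choice. With 0.5 UMIs added to each sum, as done for all genes, the log2 ratios were -5.91 for RDH16, -4.47 for DIO1 and -4.27 for BMX. They stood in places 2, 4 and 5 from the lowest. The place below RDH16 was that of HSP70.2, an inducible heat-shock chaperone, at -6.25, and the place after BMX was that of DUSP5, a phosphatase of ERK kinases, at -4.26. The median gene stood at 0.15, and scaling by the median of gene ratios would lower every acinar log2 ratio by 0.23.

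**Figure D1:**
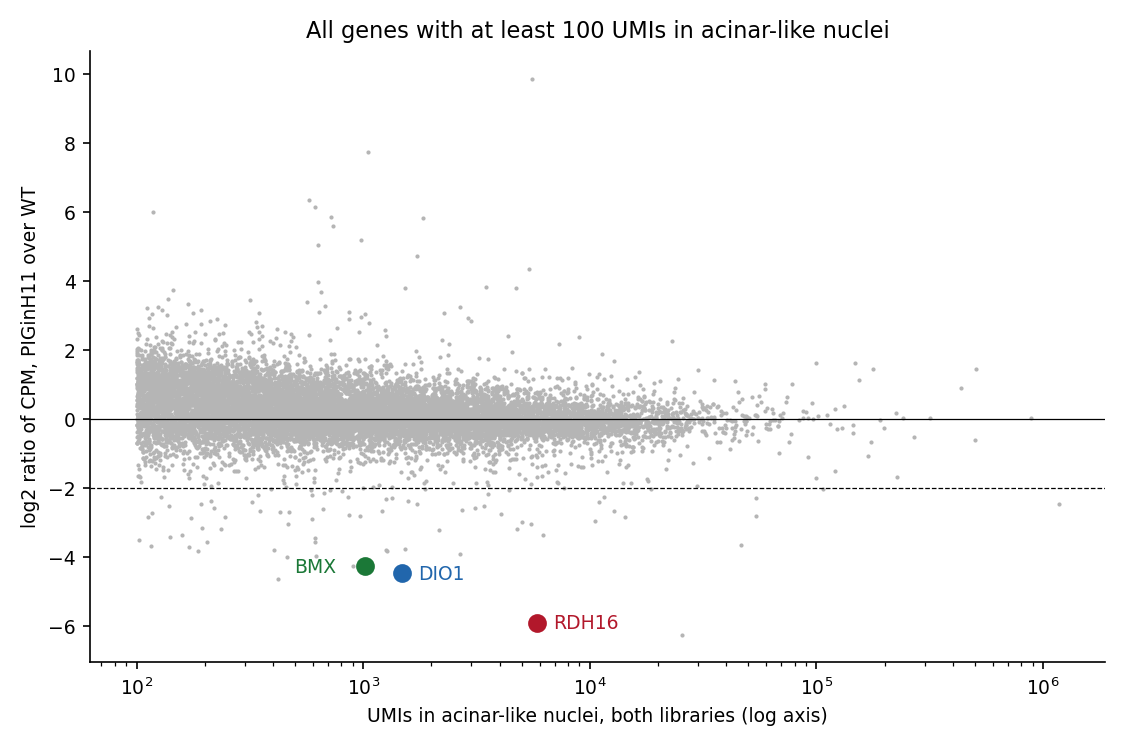
The log2 ratio of CPM in acinar-like nuclei, PIGinH11 over WT, against the UMIs of the gene in both libraries (log axis), 1 point for each of 13554 genes. The dashed line marks a 4-fold fall, and RDH16, DIO1 and BMX stand far below it at -5.91, -4.47 and -4.27, with the single point beneath RDH16 being HSP70.2.

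The lower share in PIGinH11 was present at every sequencing depth. Since PIGinH11 nuclei held fewer UMIs, nuclei were compared within depth ranges. These nuclei are those whose contrast chose the genes, so a lower share in each range restates that choice. Below 1000 UMIs, RDH16 was found in 10.6% of 872 WT and 0.369% of 3521 PIGinH11 acinar-like nuclei. From 4000 UMIs on, the shares were 64.7% of 2980 WT and 0.720% of 694 PIGinH11 nuclei. In this deepest range, DIO1 UMIs were seen in 20.5% of WT nuclei and 0.576% of PIGinH11 nuclei, and BMX UMIs in 16.1% and 0.720%. In WT the share of nuclei with each gene rose with each step in depth. In PIGinH11 it stayed below 1% in every range, though each gene had a higher share in the deepest range than in the shallowest. The PIGinH11 share of BMX rose with each step, from 0.142% to 0.720%, with 5 positive nuclei in each of these ranges. With each nucleus thinned to 500 UMIs, the expected shares were 8.90% and 0.200% for RDH16, 2.24% and 0.119% for DIO1, and 1.67% and 0.0889% for BMX, in WT and PIGinH11.

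**Figure D2:**
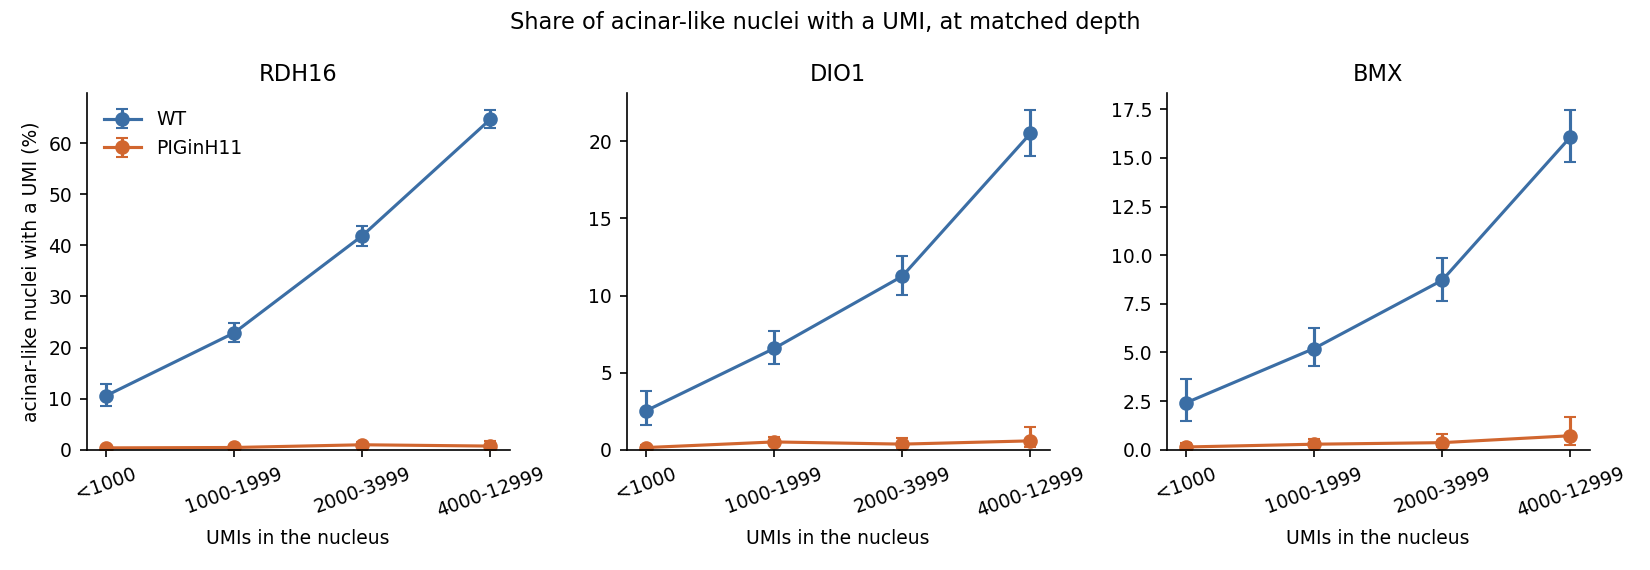
Share of acinar-like nuclei with at least 1 UMI of each gene (%), by the UMIs of the nucleus, in WT (blue) and PIGinH11 (orange), with exact 95% binomial intervals. The WT share climbs to 64.7% for RDH16, 20.5% for DIO1 and 16.1% for BMX in the deepest nuclei, and the PIGinH11 share lies along the bottom of each panel.

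The 3 genes were found in every WT acinar-like cluster. In the 7 acinar-like clusters the WT level of RDH16 lay between 126 and 219 CPM, that of DIO1 between 38.0 and 62.3 CPM, and that of BMX between 24.6 and 44.0 CPM. The PIGinH11 levels in the same clusters lay between 0 and 5.48 CPM for RDH16, 0 and 3.29 CPM for DIO1, and 0 and 3.93 CPM for BMX. For each gene the lowest WT cluster was thus above the highest PIGinH11 cluster. These clusters are parts of the class whose contrast chose the genes, so this order restates that choice. The PIGinH11 levels rest on 0 to 13 UMIs of a gene in a cluster. If the UMIs of a gene were spread evenly over all UMIs of the class, RDH16 would be found in 44.5% of the WT acinar-like nuclei, DIO1 in 15.2% and BMX in 10.8%, against the measured 42.0%, 12.5% and 9.81%. RDH16 and DIO1 occurred together in 534 WT nuclei (741 if even and independent), RDH16 and BMX in 435 (532), and DIO1 and BMX in 145 (196). These pairs were thus found together less often than the even spread would give, but so was each gene alone. The counts therefore do not show whether the genes occur together. DIO1 was found in 15.1% of WT nuclei with RDH16 and 10.6% of those without, and BMX in 12.3% and 8.02%. For BMX in nuclei with and without DIO1 the shares were 13.8% and 9.24%. These shares are not matched for depth.

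**Figure D3:**
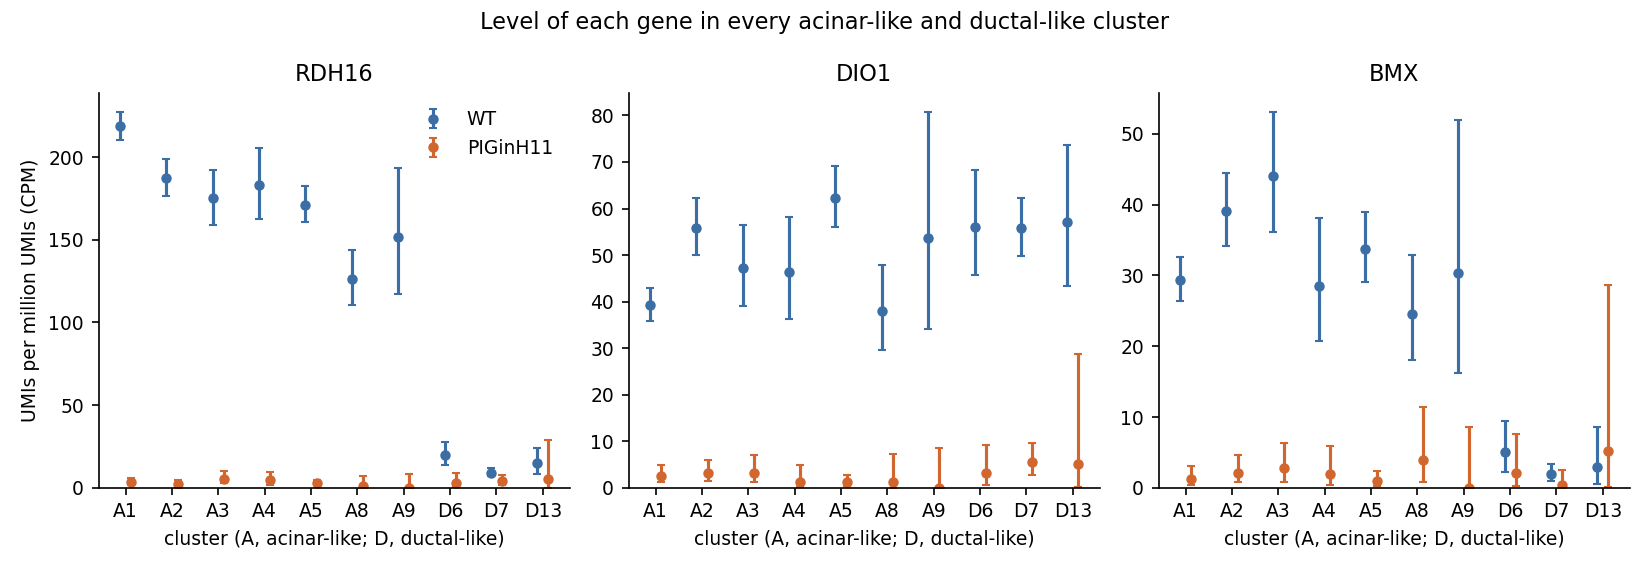
Level of each gene (CPM) in the 7 acinar-like clusters (A) and 3 ductal-like clusters (D), in WT (blue) and PIGinH11 (orange), with exact 95% Poisson intervals. Of the clusters drawn, RDH16 and BMX are high in the WT acinar-like ones alone, whereas DIO1 is at about the same WT level in the ductal-like clusters (55.7 to 57.0 CPM) as in the acinar-like ones.

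Outside acinar-like nuclei the 3 genes behaved differently from each other. A gene can appear in a nucleus through free RNA from broken acinar cells, and free RNA from 1 source keeps its genes in 1 ratio in every class of a library. Each gene was therefore also set against the summed UMIs of the 14 acinar naming markers of the same nuclei. The ratio of the free RNA itself was not measured, and it may differ from that of acinar-like nuclei.

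RDH16 was highest in acinar-like nuclei in WT. The WT level of 192 CPM in acinar-like nuclei was followed by 56.3 CPM (22.6 to 116) in mural-like, 36.7 CPM (24.2 to 53.3) in stellate-like, 32.9 CPM (10.7 to 76.7) in Schwann-like and 30.8 CPM (21.3 to 43.1) in endothelial-like nuclei, whose intervals overlap. Beta-like nuclei were at 16.4 CPM (7.88 to 30.2) and ductal-like nuclei at 12.1 CPM (9.89 to 14.7), which do not differ beyond their intervals. The lowest WT levels above 0 were those of macrophage-like nuclei at 10.8 CPM and alpha-like nuclei at 7.17 CPM, from 1 and 2 UMIs. Per 1000 acinar marker UMIs, RDH16 had 7.27 UMIs (7.08 to 7.46) in WT acinar-like nuclei, 6.43 (5.25 to 7.79) in ductal-like, 10.9 (7.57 to 15.3) in endothelial-like and 10.0 (6.59 to 14.5) in stellate-like nuclei. Over all named classes other than acinar-like the WT value was 6.97 (6.02 to 8.02), whose interval holds the acinar value, and 104 of its 192 UMIs came from ductal-like nuclei. The endothelial-like interval lies above the acinar one, while those of ductal-like and stellate-like nuclei overlap it. NR5A2, 1 of these markers, stood at 867 CPM in ductal-like and 836 CPM in acinar-like nuclei of WT. It lowers the ductal-like and pooled values, so whether RDH16 keeps the acinar ratio there cannot be told from them. A UMI was found in 9.69% of stellate-like nuclei (median depth 3309.5 UMIs) and 42.0% of acinar-like nuclei (median 2849 UMIs). In ductal-like nuclei the share was 4.69% (median 3404 UMIs) and in mural-like nuclei 13.5% (median 2935 UMIs). How much of the shares outside acinar-like nuclei came from free RNA was not tested.

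In PIGinH11 the RDH16 levels (CPM) of the classes overlapped that of acinar-like nuclei. Ductal-like nuclei held 13 UMIs and 3.92 CPM (2.09 to 6.70), endothelial-like nuclei 9 UMIs and 7.23 CPM (3.31 to 13.7), stellate-like nuclei 1 UMI and beta-like nuclei 4 UMIs and 10.1 CPM (2.74 to 25.7). Each of these intervals overlaps that of PIGinH11 acinar-like nuclei. The share of nuclei with RDH16 was 0.533% in acinar-like and 0.548% in ductal-like PIGinH11 nuclei (median 1026 UMIs), so the acinar share was not above that of the ductal-like class. Per 1000 acinar marker UMIs, however, PIGinH11 had 0.132 RDH16 UMIs (0.0973 to 0.174) in acinar-like, 1.44 (0.766 to 2.46) in ductal-like and 1.72 (0.785 to 3.26) in endothelial-like nuclei. The ratio outside acinar-like nuclei, 1.38 (0.952 to 1.94), was thus above the acinar one in PIGinH11. The acinar ratio is low here by the choice of RDH16, and the markers are high in that class by its naming. This order therefore does not show the source of the UMIs outside acinar-like nuclei. Over all named classes other than acinar-like, RDH16 went from 16.2 CPM (192 UMIs) in WT to 5.17 CPM (33 UMIs) in PIGinH11, a log2 ratio of -1.64 (-2.22 to -1.11).

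DIO1 was lower in ductal-like nuclei too, so its lower level was not limited to acinar-like nuclei. In WT ductal-like nuclei 481 DIO1 UMIs gave 56.0 CPM (51.1 to 61.2), and in PIGinH11 16 UMIs gave 4.82 CPM (2.76 to 7.83). The WT level was above the 48.0 CPM of all acinar-like nuclei but within the 38.0 to 62.3 CPM of their clusters. The ductal level was 11.6-fold lower in PIGinH11 (7.07 to 20.5), with a log2 ratio of -3.54 (-4.36 to -2.82). Of 9536 genes with at least 100 UMIs in ductal-like nuclei, 30 (0.315%) were at least 4-fold lower, and DIO1 was among them. The share of ductal-like nuclei with a DIO1 UMI was 15.0% (13.5 to 16.6) in WT, at a median of 3404 UMIs, and 0.685% (0.384 to 1.13) in PIGinH11.

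The WT ductal-like DIO1 UMIs were not in the ratio of acinar-like nuclei. Per 1000 acinar marker UMIs there were 29.7 DIO1 UMIs (27.1 to 32.5) in ductal-like and 1.82 (1.73 to 1.92) in acinar-like nuclei of WT. The 3 ductal-like clusters were alike in WT, with levels of 56.1, 55.7 and 57.0 CPM. Their PIGinH11 levels of 3.17, 5.51 and 5.15 CPM came from 3, 12 and 1 UMIs, too few to compare the clusters. A single ductal-like nucleus held up to 10 DIO1 UMIs in WT and up to 2 in PIGinH11. DIO1 was found in 5.10% of the WT stellate-like nuclei (14.9 CPM, 7.46 to 26.7) and in 2.15% of the WT endothelial-like nuclei (7.25 CPM, 3.13 to 14.3). Per 1000 acinar marker UMIs these classes held 4.07 (2.03 to 7.29) and 2.57 (1.11 to 5.07). The stellate-like interval thus also lies above the acinar one, and the source of the DIO1 UMIs in these classes was not tested.

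The endocrine-like classes gave too few DIO1 UMIs to show a change. Delta-like nuclei, the somatostatin class of the islets, held 6 UMIs in each library, at 75.1 CPM (27.6 to 163) in WT and 39.6 CPM (14.5 to 86.2) in PIGinH11. They had the highest DIO1 level of all classes in each library, although in WT the interval overlaps those of ductal-like and acinar-like nuclei, and the log2 ratio of -0.92 (-2.83 to 0.98) leaves the direction undetermined at this depth. In PIGinH11 the delta-like interval lies above that of ductal-like nuclei, which stayed at 4.82 CPM, and overlaps that of alpha-like nuclei. Alpha-like nuclei, the glucagon class, held 4 DIO1 UMIs in each library (14.3 CPM, 3.91 to 36.7, and 15.8 CPM, 4.31 to 40.5). Beta-like nuclei, the insulin class, held 5 and 1.

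BMX was lower in acinar-like nuclei and not detectably lower in endothelial-like nuclei. Endothelial-like nuclei held 23 BMX UMIs in WT, at 20.8 CPM (13.2 to 31.3), and 30 in PIGinH11, at 24.1 CPM (16.3 to 34.4). The log2 ratio was 0.21 (-0.62 to 1.06), so a fall in endothelial-like nuclei of the size described for acinar-like nuclei lies outside the counting interval. The share of endothelial-like nuclei with BMX was 4.66% (2.50 to 7.84) of 279 in WT and 3.70% (2.27 to 5.65) of 541 in PIGinH11, at medians of 3860 and 1622 UMIs. Among stellate-like nuclei it was found in 3.06% (1.13 to 6.54) in WT and in 0 of 243 in PIGinH11, which allows a share of up to 1.23% when 3 counts are taken as the limit of a count of 0 (1.51% by the exact interval). In WT the 2 shares do not differ beyond their intervals.

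The endothelial BMX UMIs lay in a few nuclei and mostly in the larger of the 2 endothelial-like clusters. At least 2 BMX UMIs were found in 6 WT and 7 PIGinH11 endothelial-like nuclei, with up to 3 and 5 UMIs in a nucleus. The cluster led by LDB2, FLT1 and LRRC3B (cluster 11), with 199 WT and 285 PIGinH11 nuclei, held 20 of the 23 WT and 25 of the 30 PIGinH11 UMIs. Its levels were 26.9 CPM (16.5 to 41.6) and 36.0 CPM (23.3 to 53.1). The cluster led by SLCO2A1 and TLL1 (cluster 15), with 80 and 256 nuclei, stood at 8.30 CPM (1.71 to 24.3) and 9.11 CPM (2.96 to 21.3), from 3 and 5 UMIs. The intervals of the clusters overlap in WT and are apart in PIGinH11. Per 1000 acinar marker UMIs, endothelial-like nuclei held 7.39 BMX UMIs (4.69 to 11.09) in WT and 5.73 (3.86 to 8.17) in PIGinH11, against 1.25 (1.17 to 1.33) and 0.0698 (0.0456 to 0.102) in acinar-like nuclei. In neither library were these UMIs in the ratio of acinar-like nuclei, which in PIGinH11 is low by the choice of BMX.

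BMX levels of the classes were ordered differently in the libraries. In WT the acinar-like level of 33.0 CPM and the endothelial-like level of 20.8 CPM had intervals that just met, and delta-like nuclei stood at 50.1 CPM (13.6 to 128) from 4 UMIs. In PIGinH11 the endothelial-like interval lay above the acinar-like one, and delta-like nuclei gave 13.2 CPM (1.598 to 47.7) from 2 UMIs. Ductal-like nuclei were low in both libraries, with 2.68 CPM (1.70 to 4.02) in WT and 1.21 CPM (0.328 to 3.09) in PIGinH11. Over all named classes other than acinar-like, BMX was at 5.55 CPM in WT and 5.64 CPM in PIGinH11, a log2 ratio of 0.02 (-0.61 to 0.63). Endothelial-like nuclei gave 23 of these 66 WT UMIs and 30 of these 36 PIGinH11 UMIs, so the pooled ratio also rests on a class that made up more of the PIGinH11 library, with 4.12% of the nuclei against 2.35%. Without the ductal-like class the log2 ratio was -0.32 (-1.03 to 0.37).

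Of the 12053 genes with at least 100 UMIs in the named classes other than acinar-like, 30 (0.249%) were at least 4-fold lower in PIGinH11. DIO1 was among them, with 518 UMIs in WT and 30 in PIGinH11 and a log2 ratio of -3.21 (-3.80 to -2.68). RDH16 and BMX were not. For RDH16 the direction was the same as in acinar-like nuclei but the log2 ratio of -1.64 lay outside the acinar interval. The acinar ratio is low by the choice of RDH16, so this does not show a fall particular to acinar-like nuclei. By class, RDH16 was at -1.63 (-2.58 to -0.79) in ductal-like and -2.09 in endothelial-like nuclei. Stellate-like nuclei gave -4.06 (-9.41 to -1.46) from 27 and 1 UMIs, and mural-like nuclei -2.97 from 7 and 1. These intervals lie below 0, and the stellate-like one holds the acinar one. Those of beta-like, alpha-like, delta-like and Schwann-like nuclei hold 0. Ductal-like nuclei gave 481 of the 518 WT UMIs of DIO1. Outside both acinar-like and ductal-like nuclei the DIO1 log2 ratio was -1.30 (-2.30 to -0.38), from 37 and 14 UMIs. That of RDH16 was -2.04 (-2.81 to -1.32), from 88 and 20 UMIs, a 4.10-fold lower level (2.50 to 7.04).

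**Figure D4:**
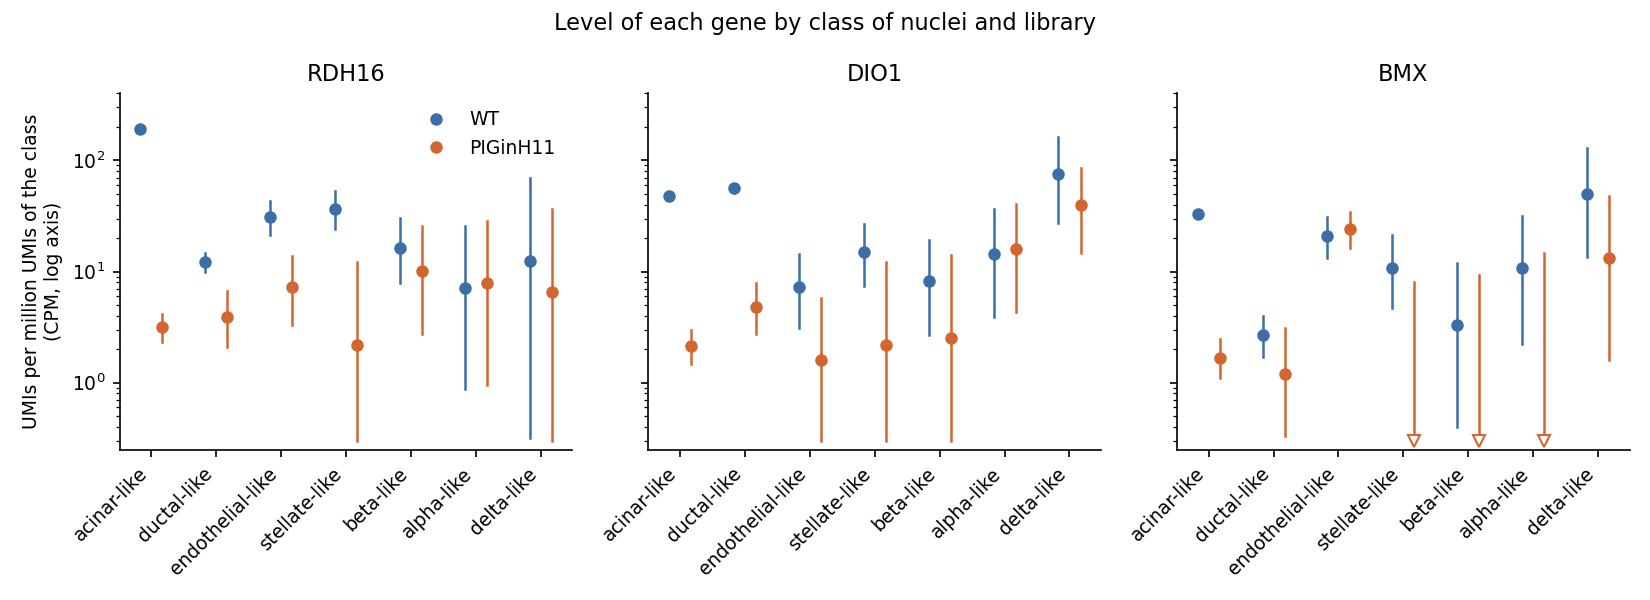
Level of each gene (CPM, log axis) in 7 classes of nuclei, in WT (blue) and PIGinH11 (orange), with exact 95% Poisson intervals cut at the lower edge of the axis. Open triangles mark classes with no UMI. RDH16 is highest in WT acinar-like nuclei, DIO1 differs between the libraries in the acinar-like and the ductal-like class, and BMX stays at 20.8 and 24.1 CPM in endothelial-like nuclei.

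Small classes gave limits more than levels. In 6 WT and 36 PIGinH11 gamma-like nuclei no UMI of any of the 3 genes was found. Stellate-like nuclei went from 8 BMX UMIs in WT to 0 in PIGinH11. The WT level was 1.64-fold that of 3 counts over the PIGinH11 class, taken as the limit of a count of 0. This leaves out the counting error of the WT sum. The exact intervals, 4.69 to 21.4 CPM in WT and 0 to 8.13 CPM in PIGinH11, overlap, so no fall is shown. An unnamed cluster led by digestive enzymes such as CELA2A and PRSS2, with 357 WT and 130 PIGinH11 nuclei, held 93 RDH16 UMIs in WT (70.4 CPM) and 0 in PIGinH11. The WT level was 2.82-fold that of 3 counts in PIGinH11, again without the counting error of the WT sum. The cluster had exact intervals of 56.8 to 86.3 CPM in WT and 0 to 30.8 CPM in PIGinH11, which are apart. Its WT RDH16 UMIs per 1000 acinar marker UMIs were 45.8 (37.0 to 56.1), above the ratio of 7.27 in acinar-like nuclei. Its 15 DIO1 UMIs in WT and 1 in PIGinH11, and 7 and 0 of BMX, were too few for an order.

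The position of the genes was taken from RefSeq on Sscrofa11.1, the build that the deposited matrices used. RDH16 (ENSSSCG00000000419 in the matrices) was placed by its symbol, at chr5:22251751-22266801. The gene name reference gives this symbol to another gene ID, which is absent from the matrices. The position and neighbours of the counted gene are therefore not certain. Of its nearest RefSeq genes, SDR9C7, another short-chain dehydrogenase with a gap of 128 bases to RDH16, had 3 UMIs in WT and 0 in PIGinH11 acinar-like nuclei, and GPR182, an orphan-type receptor, had 17 and 7. The other 4 neighbours, LOC100620470, LOC106510305, LOC100512656 and LOC100626199, were not matched to the matrices, so RDH16 reads shared with a similar neighbouring gene could not be assessed.

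DIO1 (ENSSSCG00000028896) lies at chr6:158376744-158392745, within the span of HSPB11, a component of intraflagellar transport. HSPB11 stood at 1.06 CPM in WT and 1.42 CPM in PIGinH11 acinar-like nuclei. Reads that fell in the overlap of the 2 genes could not be counted here. YIPF1, a Golgi membrane protein gene that starts 7262 bases beyond DIO1, was at 71.7 and 71.8 CPM, with a log2 ratio of 0.00 (-0.10 to 0.11). LRRC42 on the other side stood at 0.08 (-0.12 to 0.28), NDC1, a nuclear pore gene, at 0.49 (0.22 to 0.76), and LDLRAD1 at 1.96 (0.73 to 3.30) from 9 and 18 UMIs. None of the 5 measured neighbours was lower in PIGinH11 acinar-like nuclei. In ductal-like nuclei, where DIO1 was lower as well, YIPF1 stood at 0.04 (-0.15 to 0.24) and LRRC42 at 0.13 (-0.15 to 0.40).

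BMX (ENSSSCG00000012137) lies on the X chromosome at chrX:12044110-12096042. PIR, an iron-binding nuclear protein gene 9480 bases away, had a log2 ratio of -0.10 (-0.21 to -0.0043). VEGFD, a lymphatic growth factor gene, stood at -0.08 (-0.46 to 0.28) and PIGA, of glycolipid anchor synthesis, at -0.14 (-0.28 to -0.01). The Y-linked genes KDM5D and EIF1AY were found in each library, at 18.8 and 136 CPM in WT and 32.7 and 125 CPM in PIGinH11 acinar-like nuclei.

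The pathways of the 3 genes were followed through lists of genes, described by counts of genes at least 2-fold apart, beside 366 lower (2.70%) and 1600 higher (11.8%) of all 13554 genes. For RDH16, 19 of 38 listed retinoid dehydrogenases, carriers and receptors had at least 100 UMIs in acinar-like nuclei, with 2 lower, 2 higher and a median log2 ratio of 0.09, against 0.15 for all genes. RARB, the retinoic acid receptor beta, stood at 38.0 CPM in WT and 7.62 CPM in PIGinH11, a log2 ratio of -2.32 (-2.60 to -2.04). In ductal-like nuclei RARB was at 47.4 and 55.8 CPM, a log2 ratio of 0.24 (-0.02 to 0.49). RDH11, another microsomal retinol dehydrogenase, went from 100.5 to 44.7 CPM in acinar-like nuclei (-1.17, -1.29 to -1.05). BCO1, which cleaves beta-carotene into retinal, and RXRG, a retinoid X receptor, were higher, at 1.55 (1.23 to 1.87) and 1.48 (1.05 to 1.93).

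Other retinoid genes differed less. DHRS3, which reduces retinal, had a log2 ratio of -0.31 (-0.47 to -0.15), RDH10 had -0.55 (-0.81 to -0.29), and RDH13, a mitochondrial family member, had 0.94 (0.75 to 1.14). Of the retinal-oxidizing enzymes, ALDH1A1 stood at 0.16 (0.01 to 0.31) and ALDH1A2 at 0.55 (0.29 to 0.80). ADH5, which also clears formaldehyde, and DHRS4 stood at 0.06 and 0.46, and the receptors RXRA and RXRB at 0.71 and 0.92.

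For DIO1, 20 of 29 listed genes of thyroid hormone enzymes, transporters, receptors and response genes were counted, with 3 lower, 2 higher and a median of -0.01. DIO2, the type 2 deiodinase, which also forms triiodothyronine, had 74 UMIs in WT and 84 in PIGinH11, with a log2 ratio of 1.15 (0.68 to 1.62). The thyroid hormone receptor genes THRB and THRA stood at 0.36 (0.33 to 0.39) and 0.62 (0.53 to 0.72), and THRB was at 852 CPM in WT and 1092 CPM in PIGinH11. Of the response genes, KLF9 was at -1.33 (-1.42 to -1.23), BCL3 at -1.11 (-1.68 to -0.57) and TXNIP, a thioredoxin-binding protein gene also known to respond to glucose, at 1.15 (1.11 to 1.19). SLC7A5, an amino acid transporter that carries thyroid hormones, was at -1.004 (-1.21 to -0.81), and SLC16A10, another thyroid hormone transporter, at -0.71 (-0.89 to -0.53). The coregulators NCOA1, NCOA2, NCOA3 and MED1 stood between -0.10 and 0.03, and NCOR1 at 0.77 (0.68 to 0.87). The remaining members with at least 500 UMIs were SLC3A2 (-0.34), the partner chain of SLC7A5, and the metabolic genes ATP2A2 (-0.47), ME1 (-0.48) and CPT1A (0.01).

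Selenoproteins share with DIO1 the need for selenocysteine insertion. Of 27 listed selenoprotein and insertion genes, which do not include the deiodinases (DIO2, given above, is a selenoprotein too), 22 were counted, with 0 lower, 0 higher and a median of -0.13. SELENOM and SELENOT, selenoproteins of the secretory pathway, were the lowest at -0.98 (-1.21 to -0.75) and -0.86 (-1.004 to -0.72). SELENOP, the selenium transport protein, stood at 0.17 (0.12 to 0.22) and GPX4, which reduces lipid peroxides, at 0.07 (-0.09 to 0.23). The insertion factors SECISBP2 and EEFSEC stood at -0.19 (-0.28 to -0.10) and -0.10 (-0.21 to 0.0042). The thioredoxin reductases TXNRD1, TXNRD2 and TXNRD3 stood at 0.37, 0.68 and 0.44. Of the other members with at least 500 UMIs, SELENOS, SELENOF, SEPHS1 and SEPSECS lay between -0.59 and -0.20, and SELENOI, SECISBP2L and SELENOO between 0.13 and 0.57.

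Among Tec kinases and their partners, 12 of 17 were counted, with 0 lower and 1 higher and a median of -0.01. TEC, the founding kinase of the family, was at 68.2 CPM in WT and 67.2 CPM in PIGinH11 acinar-like nuclei, a log2 ratio of -0.02 (-0.13 to 0.09). TXK, the family member of T cells, was at 1.28 (0.69 to 1.88) from 45 and 56 UMIs. STAT3, a transcription factor acted on by BMX, stood at -0.47 (-0.53 to -0.40) and PIK3R1, a regulatory subunit of phosphoinositide 3-kinase, at -0.44 (-0.51 to -0.36). The adaptors BCAR1 and GRB10 were at -0.66 and 0.00, the kinases SRC, PTK2 and RPS6KA3 at -0.16, 0.04 and 0.14, and PIK3CA, PIK3CB and PTPN21 at -0.22, 0.23 and 0.07.

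Because RDH16 and DIO1 are known from hepatocytes, nuclear factors of hepatocytes were listed as well. Of 20 such genes 14 were counted, with 2 lower, 0 higher and a median of -0.11. The 2 lower ones were ONECUT1, at 259 CPM in WT and 98.6 CPM in PIGinH11 (-1.40, -1.48 to -1.32), and CEBPB (-1.40, -1.75 to -1.05). HNF4A stood at -0.38 (-0.46 to -0.30), HNF4G at -0.45 (-0.51 to -0.40) and PPARA at 0.50 (0.44 to 0.55). FOXA3 and FOXA2 were at -0.81 and -0.25, and NR5A2, RORA, PPARGC1A and PROX1 lay between 0.19 and 0.41. Of 18 acinar regulators and secretory genes 13 were counted, with 1 lower, 1 higher and a median of 0.10. XBP1, a factor of the unfolded protein response, was at -1.09 (-1.16 to -1.01) and GP2, a zymogen granule membrane protein, at 1.02 (1.00 to 1.04), while the acinar factors RBPJL, PTF1A and GATA4 stood at 0.46, 0.60 and 0.10. CCKAR, the receptor for cholecystokinin, was at -0.81, BHLHA15 at -0.61, TMED6 at -0.56, SYCN at -0.41 and RAB3D at -0.06, while GATA6 and the water channel AQP8 were at 0.36 and 0.48. RBPJL, PTF1A, GATA4, NR5A2 and BHLHA15 are also among the markers that named the class, so their presence in it was fixed by the naming.

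The genes most alike to each of the 3 were sought by Pearson's r of log2 levels over 12 points, the 6 classes with at least 50 nuclei in each library, among 10746 genes with symbols. The points of a library share its depth and free RNA, so r is a description. They also include the acinar-like levels by which the 3 genes were chosen. Genes with a like fall in acinar-like nuclei therefore rank high by that choice. HSPA6 (r = 0.91), an inducible chaperone, and CHAC1 (0.91), which degrades glutathione, were most like RDH16, followed by TMEM41B, ATF5 and MT3 (0.86, 0.85 and 0.85). HSPA6 was near the floor, at 5.00 CPM in WT and 0.452 CPM in PIGinH11 acinar-like nuclei, where 5 CPM was added before the log. SERPINA11 (0.83) and SELENOT (0.81) were most like DIO1, followed by INTS6, TIPARP and TMEM68. SERPINA11 was at 3.71 CPM in WT and 0.258 CPM in PIGinH11 acinar-like nuclei, and at 9.78 and 0.904 CPM in ductal-like nuclei. DUSP5 (0.95) and ITM2A (0.91) were most like BMX, followed by UBB, HSPB1 and HSP70.2 (0.89, 0.89 and 0.87). Between the 3 genes r was 0.63 for RDH16 and DIO1, 0.69 for RDH16 and BMX, and 0.29 for DIO1 and BMX.

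Some stress-induced genes, named here after their values were seen, were also lower in PIGinH11. HSP70.2 was at 842 CPM in WT and 11.04 CPM in PIGinH11 acinar-like nuclei, FOS at 40.8 and 2.84 CPM, and EGR1 at 149.7 and 16.5 CPM. Among WT acinar-like nuclei, the 5371 with a HSP70.2 UMI held RDH16 at 195 CPM (189 to 200.3), DIO1 at 47.2 CPM (44.4 to 50.0) and BMX at 32.1 CPM (29.9 to 34.5). The 3062 without one held RDH16 at 181 CPM (171 to 192), DIO1 at 50.9 CPM (45.6 to 56.6) and BMX at 35.9 CPM (31.5 to 40.7). The nuclei without a HSP70.2 UMI were shallower, with a median of 1650 against 3894 UMIs, so a missing UMI does not mark a nucleus in which the gene was not induced. The part of these stress-induced genes in the difference was not tested.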

How the data were processed

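The deposited files hold raw UMI counts per gene and barcode of 1 WT and 1 PIGinH11 pancreas library, made by the authors with Cell Ranger (3.1.0 by the processing notes, 5.0.0 by the matrix headers) on Sscrofa11.1. The barcodes and gene lists were deposited with each matrix. Of the 31908 genes, 15410 lacked a symbol, and the reference supplied one for 841. Median depth was 3216 UMIs per barcode in WT and 1181.5 in PIGinH11.

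Nuclei were kept at 270 to 3700 genes, under 13000 UMIs and under 10% mitochondrial UMIs, and the highest Scrublet scores (scanpy v1.11.5) were removed, at 0.8% for each 1000 barcodes. The methods print 1300 as the UMI limit, which was tried as an alternative. The 2000 most variable genes were taken, ranked over both libraries. Before this, 221 genes were left out, among them RDH16, DIO1, BMX and the listed genes that are not naming markers. With 30 principal components, Harmony and Louvain clustering at resolution 1 (igraph v0.11.9), they gave 22 clusters of at least 20 nuclei. Naming a cluster took 3 or more markers of 1 class, each detected in 5% or more of the cluster and enriched by a log2 fold of 1 or more, and no other class with more markers than the named one among the 10 leading genes.

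UMIs were summed per class and library. Intervals were Poisson for CPM, Clopper–Pearson for shares and conditional binomial for ratios (scipy v1.17.1). Only the ratios and their intervals were tested on simulated data. The simulated counts were Poisson, so this does not test the intervals where the UMIs of a gene gather in few nuclei. A gene listed in a pathway was named when it had at least 500 UMIs in acinar-like nuclei or was at least 2-fold apart with at least 100 UMIs, and a few such genes and 1 neighbouring gene are not reported here. The 3 genes and all lists were chosen with earlier results of these data known.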

Additional observations from a re-analysis of the deposited data

Results flagged for a closer look

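BMX was singled out because its log2 ratios in acinar-like and endothelial-like nuclei, the classes with at least 20 BMX UMIs in each library, differed in sign. In acinar-like nuclei PIGinH11 over WT gave a log2 ratio of -4.30 (-4.92 to -3.74), and in endothelial-like nuclei it was 0.21 (-0.62 to 1.06), whose sign is not determined at this depth. The share of endothelial-like nuclei with a BMX UMI was 4.66% in WT and 3.70% in PIGinH11. The 95% intervals cover counting error only, and with 1 library in each group the difference between the classes was not tested.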

How the results depend on the processing

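No paired analysis was possible because each group had 1 library, and for the same reason no library could be left out. The log2 ratios of the 3 genes in acinar-like nuclei kept their sign in every alternative that gave a value. They lay between -7.64 and -5.00 for RDH16, -4.72 and -3.88 for DIO1, and -4.52 and -3.68 for BMX. At a limit of 1300 UMIs, which left 1474 WT and 4876 PIGinH11 acinar-like nuclei, RDH16 was at -5.00 and DIO1 at -3.88, and the thinned WT shares were 7.52% and 1.85%. RDH16 was at -5.50 as the mean over nuclei, and equally when thinned to 500 UMIs, which is the same by construction since each nucleus held at least that many. Free RNA was also subtracted, on the assumption that it equals the UMIs per nucleus of the stellate-like class. RDH16 was then at -7.64 and BMX at -3.68, and no DIO1 value could be given because the subtraction left PIGinH11 below 0. In PIGinH11 the stellate-like class held 1 UMI of RDH16, 1 of DIO1 and 0 of BMX in 243 nuclei. The subtraction thus took RDH16 from 49 to 11.9 UMIs there and left BMX at 26. The ends of the ranges at -7.64 and -3.68 therefore rest on 1 and 0 UMIs.

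Outside acinar-like nuclei, RDH16 moved to -2.68 and BMX to -0.72 without doublet removal. At the limit of 1300 UMIs RDH16 was at -2.34 from 9 and 8 UMIs, and BMX at -2.75 from 3 and 2 UMIs, with no BMX UMI in endothelial-like nuclei. DIO1 lay between -3.43 and -2.75, the latter at the limit of 1300 UMIs from 9 and 6 UMIs. In alternatives added after seeing the data, the ductal DIO1 ratio lay between -3.66 and -3.29, the latter from 7 and 3 UMIs at that limit. The endothelial BMX ratio lay between 0.11 and 0.21 and the endothelial RDH16 ratio between -2.31 and -1.92. Genes at least 4-fold lower numbered 51 of 8390 with at least 500 UMIs and 118 of 19106 with at least 20 UMIs, so the count follows the number of genes counted. The other alternatives lay between 63 of 7313, at the limit of 1300 UMIs, and 113 of 12728, without Harmony. The latter left 4004 PIGinH11 acinar-like nuclei. The causes of the remaining shifts were not tested. Depth limits the endocrine-like, mural-like and immune classes, where most sums were below 10 UMIs.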
